A study of Homo sapiens with 5 samples.

Results

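SAMHD1 and 9 enzymes that make, salvage or clean deoxynucleotides were followed across 5 clones of Nalm6, a human leukaemia cell line established from precursor B lymphocytes (acute lymphoblastic leukaemia). The 10 genes are RRM1, RRM2 and RRM2B (ribonucleotide reductase), DCK, DGUOK and TK1 (salvage kinases), TYMS, DCTD and DUT (thymidylate supply) and SAMHD1, out of 18417 genes with a value. SAMHD1 was picked because it had the largest difference of all genes between the clone groups, so its difference is described here without a test. The 9 enzymes were picked by their function, though with earlier results of these data known. Each of the 10 genes had 1 probe set annotated with its symbol alone, so no choice between probe sets was needed.

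The MondoA shRNA clones carried a short hairpin RNA (shRNA) against MondoA (3 clones, 1 array each), and the control clones carried a nonsense shRNA (2 clones, 1 array each). All 5 clones were Nalm6 cells grown in RPMI medium with 20% fetal bovine serum, glutamine, gentamycin and 200 mg/dl glucose. No other agent is named in the labels. Each clone is a single derived line, and nothing in the labels gives repeat cultures of a clone. All values are expression levels on the log2 scale from RMA (robust multi-array average, which corrects background, equalises the arrays and summarises the probes of each probe set), errors are SD over n = 3 MondoA shRNA and n = 2 control arrays, and differences are MondoA shRNA minus control shRNA. Probes differ in how brightly they bind, so levels of different probe sets were set against a common line only as a rough reading of cell type markers and dim genes.

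A cell keeps its deoxynucleotides in a balance of synthesis, salvage and breakdown. Ribonucleotide reductase turns ribonucleoside diphosphates into deoxyribonucleoside diphosphates, the salvage kinases return deoxynucleosides to the pool, and SAMHD1 cleaves deoxynucleoside triphosphates back to deoxynucleosides. SAMHD1 is abundant in myeloid and resting T cells, where it restricts retroviruses, and in leukaemia cells it hydrolyses the active triphosphate of cytarabine, a drug that DCK activates by its first phosphorylation.

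The promoter windows of 3 members are shown. SAMHD1 and TYMS had the largest differences of the 10 genes. Of the 9 members whose windows were searched, without RRM2B, only DCK held CACGTG. Of all promoter windows 6.34% held it, so the match is not read as a trait of the members. CACGTG is the E-box core to which MondoA binds with its partner MLX, and binding was not tested. Each window shown is the 250 bases before the annotated start from RefSeq (GRCh38.p14), written 5′ to 3′ along the gene. Capitals mark the core bound by NRF1 (GCGC, any base, then TGCGC) and CCAAT in SAMHD1 (chr20:36951709-36951958, minus strand), TTTNNCGC (a core bound by E2F factors, here on the opposite strand) in TYMS (chr18:657403-657652, plus strand) and CACGTG in DCK (chr4:70993399-70993648, plus strand).
SAMHD1: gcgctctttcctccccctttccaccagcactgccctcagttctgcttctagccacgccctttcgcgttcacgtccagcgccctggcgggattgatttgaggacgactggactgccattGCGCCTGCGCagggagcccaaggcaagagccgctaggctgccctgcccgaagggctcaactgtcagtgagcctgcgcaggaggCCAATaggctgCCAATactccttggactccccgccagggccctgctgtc
TYMS: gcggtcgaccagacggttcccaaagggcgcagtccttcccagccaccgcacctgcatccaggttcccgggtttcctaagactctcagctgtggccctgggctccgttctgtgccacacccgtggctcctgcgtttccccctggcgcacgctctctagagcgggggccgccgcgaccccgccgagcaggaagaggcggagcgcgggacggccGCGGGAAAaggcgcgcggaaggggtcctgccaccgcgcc
DCK: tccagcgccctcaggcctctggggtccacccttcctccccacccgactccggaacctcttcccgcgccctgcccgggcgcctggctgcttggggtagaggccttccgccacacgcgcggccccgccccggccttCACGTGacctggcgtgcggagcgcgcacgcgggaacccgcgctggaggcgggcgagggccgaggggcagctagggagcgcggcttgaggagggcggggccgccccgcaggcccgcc

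Both strands were searched, none of the motifs marked in these windows overlap, and a match is a description of the letters only. The NRF1 core stood at -132 and the CCAAT boxes at -49 and -38 from the SAMHD1 start, counted to the first base of each match. Of all 35116 promoter windows of the same length, 5.07% held the NRF1 core, 32.0% held CCAAT, 5.92% held TTTNNCGC and 6.34% held CACGTG. The motifs were chosen after the sequences were read, so a low share does not make a match here remarkable. The SAMHD1 window held no CACGTG and no GC box (GGGCGG, in 42.6% of all windows). Windows were searched for 9 of the 10 members, 15 windows in all. RRM2B, on chromosome 8, was left out of the search, so whether its promoter holds these motifs was not assessed. CCAAT was also found in the windows of RRM1, RRM2, DGUOK and TK1, and TTTNNCGC in 1 of the 4 windows of DUT.

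The knockdown itself was not visible in the RNA values of its target. MLXIP, which encodes MondoA, read 6.42, 6.47 and 6.29 in MondoA shRNA clones 1, 2 and 3, against 6.42 in both control clones. MondoA shRNA clone 1 and both controls thus read alike to 2 decimals, and how well this probe set follows the RNA was not assessed. The groups overlapped, with a difference of -0.03 and an adjusted p of 0.959 by limma, so the directions below refer to the clone labels. As a rough reading of the labelled cell type, markers were set against 4.15, the median level of a gene on these arrays. Above it lay 12 of 12 measured markers of B-cell precursors, 0 of 8 myeloid markers, 1 of 10 T and natural killer cell markers (NKG7) and 0 of 5 erythroid markers. Over the 5 arrays the median levels were 2.93 to 2.98 (myeloid), 2.74 to 2.78 (T and natural killer) and 2.77 to 2.86 (erythroid).

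SAMHD1 read 7.05, 7.26 and 6.76 in MondoA shRNA clones 1, 2 and 3, against 4.14 and 3.57 in control clones 1 and 2. The 3 MondoA shRNA clones all stood above both controls, and the gap between the lowest of them and the higher control was 2.61. The values spanned 0.50 among the MondoA shRNA clones and 0.57 among the controls. The gene was chosen for its difference, so the gap beside these ranges is description only. In RNA from a whole culture, fewer cells with a transcript and less of it per cell cannot be told apart. The difference of the means was 3.17, or 8.98-fold, and it was the largest absolute difference of the 18417 genes, which is why the gene was chosen. With 1 array left out it ran from 2.88 (without control clone 2) to 3.45 (without control clone 1). Both controls lay below the median gene level of 4.15. If that level is background, the RNA differed by 8.98-fold or more, and whether SAMHD1 RNA was detected in the controls was not assessed.

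Of the 12 measured markers of B-cell precursors, 3 had every MondoA shRNA clone above both controls (4.85% of all genes) and 2 had every one below (5.18%). Of the 9208 genes above the median level, where all 12 lie, 665 had every one above and 770 every one below. None of the 12 passed the adjusted threshold in limma. CD22, an inhibitory co-receptor of B cells, read 7.14, 7.73 and 7.68 in MondoA shRNA clones, against 6.15 and 6.35 in controls (difference 1.27). CD79A and CD79B, the signalling chains of the B-cell receptor, differed by 0.91 and 0.25. DNTT, the terminal transferase of early precursors, which adds deoxynucleotides to DNA ends, read 9.15, 9.73 and 9.09 in MondoA shRNA clones, against 10.57 and 10.47 in controls (difference -1.19). The limma adjusted p of these genes was 0.833 each. The 12 markers had a median difference of 0.01, with 7 above 0 and 5 below, and CD22, CD79A, CD79B and DNTT (4 of 12) stood at an unadjusted p under 0.05, against 3.73% of all genes. The part of these markers in the SAMHD1 difference was not tested.

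**Figure D1:**
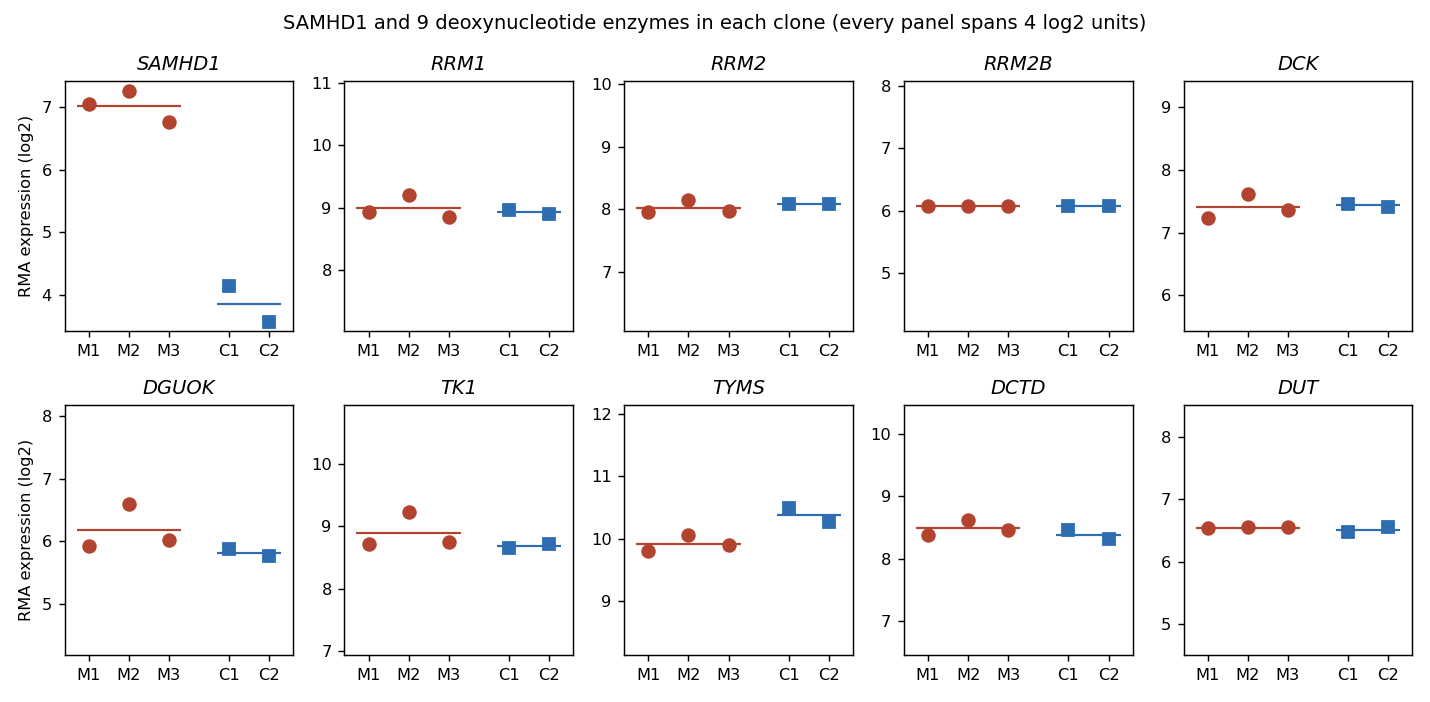
RMA expression (log2) of SAMHD1 and the 9 enzymes in MondoA shRNA clones 1 to 3 (M1 to M3, red circles) and control clones 1 and 2 (C1 and C2, blue squares), with a line at each group mean; every panel spans the same number of log2 units. SAMHD1 stands apart, with MondoA shRNA clones at 6.76 to 7.26 and controls at 3.57 and 4.14, while the enzymes span at most 0.83.

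The genes whose profile over the 5 arrays lay nearest to that of SAMHD1 were found by the root mean square distance between profiles, each centred on its own mean, over all genes. They were S100A16 (a calcium-binding protein, distance 0.29), PRPS2 (a synthetase of phosphoribosyl pyrophosphate, the sugar donor of nucleotide synthesis, 0.49), TASL (which couples endolysosomal Toll-like receptors to IRF5, 0.74), CD180 (a Toll-like receptor relative on B cells, 0.82) and PLD4 (an endolysosomal exonuclease, 0.83). Since the SAMHD1 profile is dominated by the difference between the groups, this measure selects genes with large differences of the same sign. PRPS2, the one among them with a place in nucleotide supply, read 5.83, 6.56 and 5.93 in MondoA shRNA clones, against 4.02 and 3.72 in controls. Its highest clone was MondoA shRNA clone 2 and its lowest was control clone 2, as for SAMHD1. PRPS2 was selected by its likeness over these same arrays, so the shared order adds no support. Of the 9 enzymes, DGUOK lay nearest to SAMHD1 at 1.39 with 246 genes closer, and TYMS lay farthest at 1.79.

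**Figure D2:**
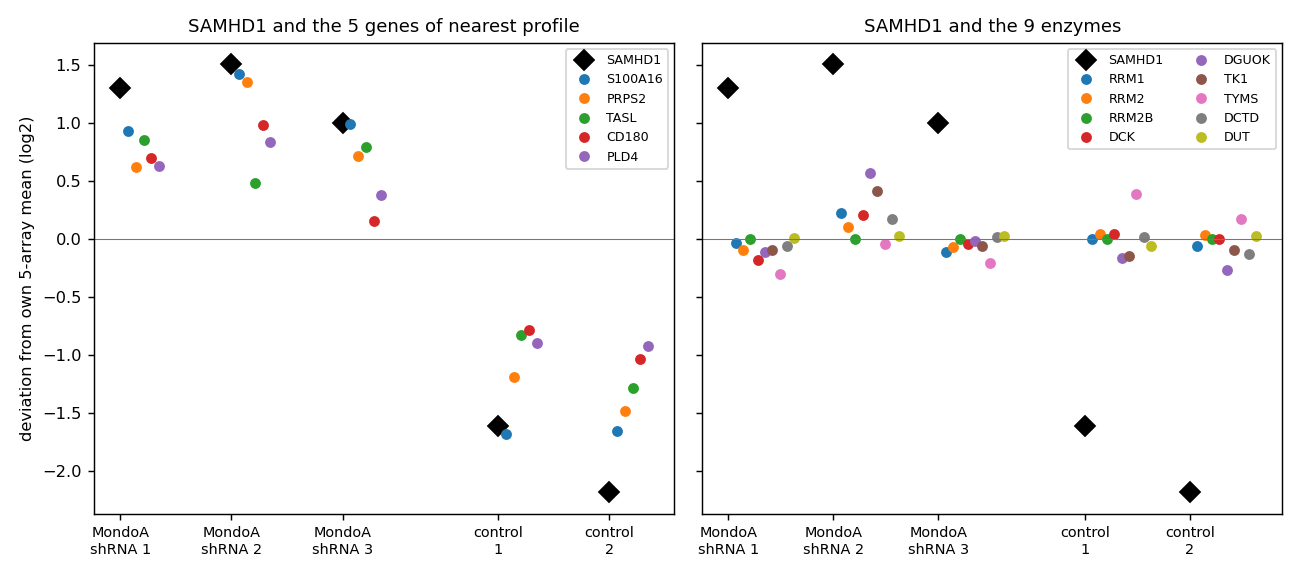
Deviation of each clone from the gene's own 5-array mean (log2) for SAMHD1 (black diamonds) with the 5 genes of nearest profile (left) and with the 9 enzymes (right); points at one clone are set side by side for legibility. SAMHD1 runs from 1.5 in MondoA shRNA clone 2 to -2.19 in control clone 2, and the enzymes stay between -0.30 and 0.56.

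The genes next to SAMHD1 on chromosome 20 did not share its difference. RBL1, the measured neighbour on one side (a retinoblastoma relative), read 6.93, 6.99 and 6.93 in MondoA shRNA clones, against 6.93 and 6.61 in controls. TLDC2, on the other side, read 3.57, 3.44 and 3.66 in MondoA shRNA clones, against 3.34 and 3.44 in controls. The 6 nearest measured genes (DSN1, MTCL2, TLDC2, RBL1, MROH8 and RPN2) had differences from -0.15 to 0.18, and in all 6 the groups overlapped. TLDC2, MTCL2 and MROH8 had levels below the median gene, and whether their RNA was detected was not assessed.

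No difference between the groups was detected in the subunits of ribonucleotide reductase. RRM1, the large subunit that holds the catalytic and regulatory sites, read 8.93, 9.20 and 8.86 in MondoA shRNA clones, against 8.96 and 8.91 in controls. MondoA shRNA clone 2 was the highest of the 5 and clone 3 the lowest, so the groups overlapped, with a difference of 0.06 (95% interval -0.30 to 0.42, limma adjusted p = 0.927). RRM2, the small subunit made in S phase, read 7.95, 8.15 and 7.98 in MondoA shRNA clones, against 8.09 and 8.08 in controls. Again clone 2 was the highest, and the difference was -0.06 (95% interval -0.28 to 0.15, limma adjusted p = 0.833).

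RRM2B, the small subunit that p53 induces and that serves cells outside S phase, read 6.07 in all 5 clones. The deposited values were identical to the last digit, as they were for 9.70% of all genes, so the difference of 0.00 carries no measure of spread and no interval is given. DUT had 3 different values among the 5 clones, and TK1 and DCTD had 4 each. Of all genes, 54.0% had the same value in at least 3 arrays.

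Among the MondoA shRNA clones the salvage kinases ranged over 0.39 (DCK), 0.51 (TK1) and 0.68 (DGUOK), with clone 2 the highest in each. Between the 2 controls they ranged over 0.05 (DCK), 0.06 (TK1) and 0.10 (DGUOK). DCK, which phosphorylates deoxycytidine and several nucleoside drugs, read 7.23, 7.62 and 7.37 in MondoA shRNA clones, against 7.46 and 7.41 in controls. The MondoA shRNA clones lay on both sides of the controls, and the difference was -0.03 (95% interval -0.43 to 0.37, limma adjusted p = 1.00). It was -0.14 without MondoA shRNA clone 2 and 0.06 without MondoA shRNA clone 1, so its sign rests on single clones.

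TK1, the cytosolic thymidine kinase of dividing cells, read 8.72, 9.23 and 8.75 in MondoA shRNA clones, against 8.66 and 8.72 in controls. MondoA shRNA clone 1 and control clone 2 had the same value, and clone 2 alone stood well above the rest. The difference was 0.21 (95% interval -0.36 to 0.78, limma adjusted p = 0.833), and 0.05 without clone 2. DGUOK, the mitochondrial deoxyguanosine kinase, read 5.92, 6.60 and 6.02 in MondoA shRNA clones, against 5.87 and 5.77 in controls. All 3 MondoA shRNA clones stood above both controls, by a gap of 0.05 that was smaller than the spread among the controls (0.10). The difference was 0.36 (95% interval -0.38 to 1.1, limma adjusted p = 0.833), and 0.15 without clone 2.

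TYMS, the thymidylate synthase that methylates dUMP to dTMP, had the largest difference of the 9 enzymes. It read 9.80, 10.06 and 9.89 in MondoA shRNA clones, against 10.49 and 10.26 in controls. The groups did not overlap, with a gap of 0.21 between the highest MondoA shRNA clone and the lower control, and ranges of 0.26 among MondoA shRNA clones and 0.22 among controls. The difference was -0.46, or 0.727-fold (95% interval -0.81 to -0.12). Its p was 0.022 by limma before adjustment and 0.833 after adjustment over all genes, so it did not pass. Over the alternatives the adjusted limma p ran from 0.202 to 0.878. Its unadjusted limma p ran from 0.000799 after a second quantile normalisation to 0.185 with the replicate number as a block. It was 0.063 without MondoA shRNA clone 1, 0.0761 without MondoA shRNA clone 3 and 0.105 without control clone 1, a fit in which the lone control is assumed to vary like the MondoA shRNA clones.

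The other genes of thymidylate supply had smaller differences. DCTD, which deaminates dCMP to dUMP, read 8.38, 8.62 and 8.46 in MondoA shRNA clones, against 8.46 and 8.31 in controls, with overlapping groups and a difference of 0.10 (95% interval -0.18 to 0.39, limma adjusted p = 0.833). DUT, which breaks down dUTP and thereby feeds dUMP to TYMS, read 6.53, 6.55 and 6.55 in MondoA shRNA clones, against 6.47 and 6.55 in controls. Its difference was 0.04 (95% interval -0.05 to 0.12, limma adjusted p = 0.833), and the groups overlapped. The intervals of RRM1, DCK, DGUOK, TK1 and DCTD all reach 0.3 or more in at least 1 direction, and a p above the threshold does not show that these genes were equal in the groups.

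**Figure D3:**
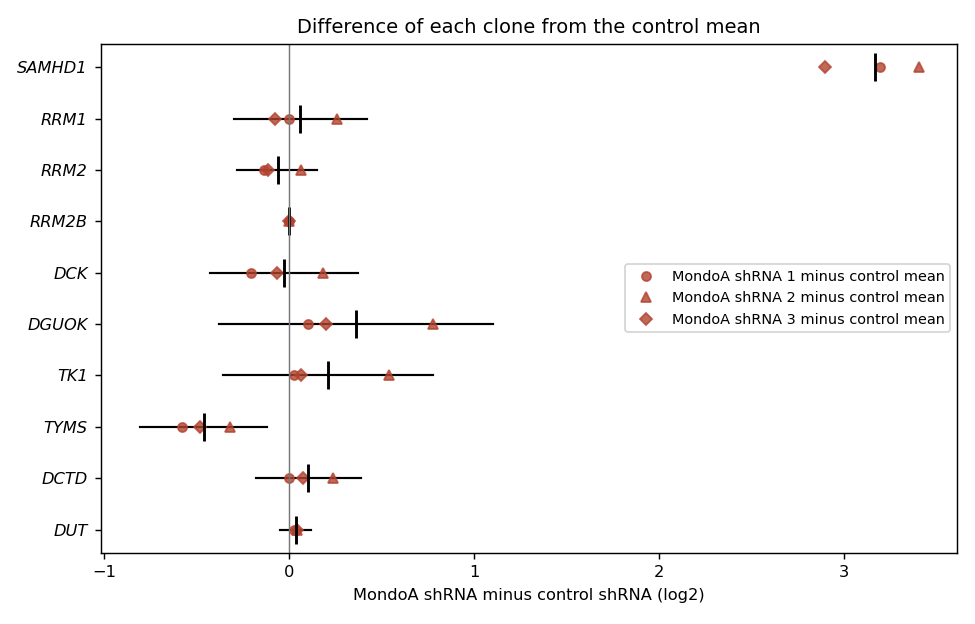
Difference of each MondoA shRNA clone from the control mean (log2; circle clone 1, triangle clone 2, diamond clone 3), the difference of the group means (vertical tick) and its 95% limma interval (line; none for SAMHD1, which was chosen for its difference). SAMHD1 stands at 3.17, TYMS at -0.46 and the other 8 enzymes between -0.06 and 0.36. The narrow line of RRM2B, whose values are identical in all clones, does not measure a spread between clones.

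Across the 9 enzymes, 0 passed an adjusted p under 0.05 in limma, where 0.0% of all genes did, and 1 (TYMS) stood at an unadjusted p under 0.05, where 3.73% of all genes did (2.18% on the lower side, that of TYMS). The groups did not overlap for 2 of the 9 (TYMS and DGUOK), against 10% of all genes and 15.6% of genes above the median level. The median difference of the 9 was 0.04, with 5 above 0, 3 below and 1 at exactly 0. Over all genes the median difference was 0.00, and over the genes above the median level, where all 9 enzymes lie, it was 0.01.

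Most of the enzymes had their highest value in the same clone. MondoA shRNA clone 2 was the highest of the 5 clones for 6 of the 9 enzymes (RRM1, RRM2, DCK, DGUOK, TK1 and DCTD), against 36.8% of all genes above the median level. The median deviation of the 9 enzymes from their own 5-array mean was -0.10, 0.17 and -0.05 in MondoA shRNA clones 1, 2 and 3, and 0.00 in both controls. For the genes above the median level it was -0.04, 0.03 and 0.00 in MondoA shRNA clones 1, 2 and 3, and 0.00 and -0.01 in controls 1 and 2. The 23 genes of the replication fork and S phase had their highest median deviation in the same clone, at 0.14, against -0.03 and 0.05 in MondoA shRNA clones 1 and 3 and -0.03 and -0.06 in the controls. The part of cell cycle or of array brightness in the values of clone 2 was not tested.

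TYMS lies on the short arm of chromosome 18, and the brighter genes of that chromosome had negative differences throughout. Of the 110 chromosome 18 genes with a mean level above 5, TYMS included, all 110 differed in the negative direction, and their median was -0.42. None of the 110 passed an adjusted p under 0.05 in limma, and 45 stood at an unadjusted p under 0.05. On the lower side 247 of 7336 genes of other chromosomes above the same level did so, and 2.18% of all genes. TYMS at -0.46 stood in the middle of them, with 48 of the 110 lower still, and differed by -0.05 from the median of the other 109. In 80 of the 110, every MondoA shRNA clone lay below both controls (72.7%), against 8.32% of genes of other chromosomes above the same level and 5.18% of all genes.

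The likeness held clone by clone. TYMS deviated from its 5-array mean by -0.30, -0.04 and -0.21 in MondoA shRNA clones 1, 2 and 3, against 0.39 and 0.16 in controls 1 and 2. The median of the other 109 chromosome 18 genes deviated by -0.32, 0.00 and -0.13 in MondoA shRNA clones 1, 2 and 3, against 0.35 and 0.15 in controls 1 and 2. Neighbouring genes share their chromosome and are not independent replicates. Of the near neighbours of TYMS, the kinase gene YES1 differed by -0.29 (5.12, 5.20 and 5.20 in MondoA shRNA clones, against 5.58 and 5.37 in controls) and TYMSOS, the transcript beside the TYMS start, by -0.17. CETN1, CLUL1, ADCYAP1 and LINC00470 had levels below the median gene and differences from 0.00 to 0.06. In RefSeq the TYMS gene overlaps ENOSF1, which was not analysed here, and whether its RNA adds to the TYMS signal was not tested. The part of the chromosome 18 shift in the TYMS value was not tested.

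**Figure D4:**
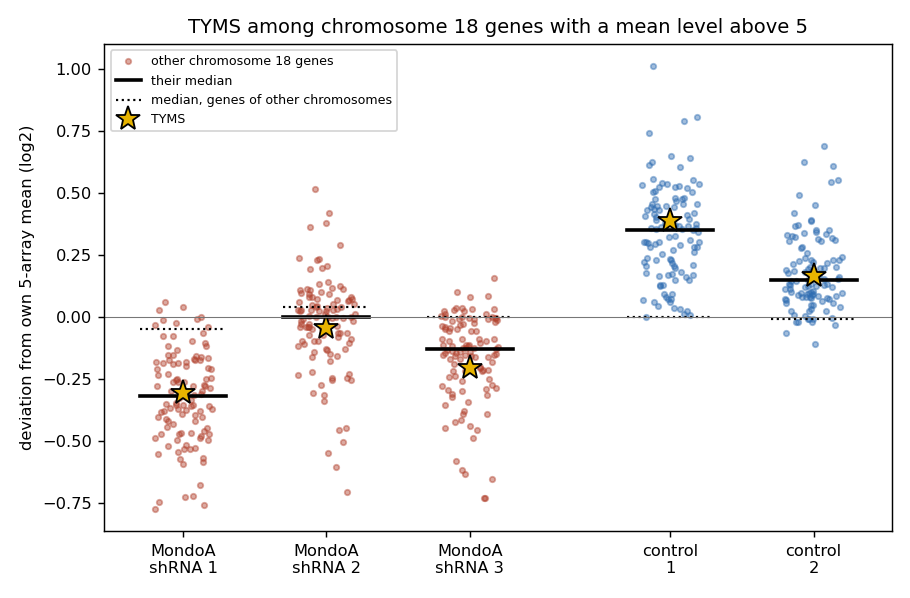
Deviation of each gene from its own 5-array mean (log2) by clone, for TYMS (star) and the other 109 chromosome 18 genes with a mean level above 5 (points; red MondoA shRNA, blue control), with their median (solid line) and the median of genes on other chromosomes (dotted line). TYMS follows the chromosome 18 median in each clone, and is farthest from it in MondoA shRNA clone 3, at -0.21 against -0.13.

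Gene lists by role were read beside the 10 genes, together with lists of markers and of regulated genes (14 lists, 178 measured genes). No listed gene passed an adjusted p under 0.05 in limma. Neither did any other of the 18417 genes, so this does not set the lists apart. At an unadjusted p under 0.05 stood 20 of the 178, against 3.73% of all genes. Of the 9208 genes above the median level, 215 stood there with higher and 328 with lower values. Most of the 20 belonged to the replication, interferon, p53 and B-precursor lists. The lists were chosen with earlier results of these data known, so no excess is read from this count or from those of single lists. In the list of other nucleotide kinases (12 measured, TK2 among them), 10 differences were above 0 and 1 was below, with a median of 0.09. TK2, the mitochondrial thymidine kinase, read 4.79, 4.85 and 4.79 in MondoA shRNA clones, against 4.43 and 4.33 in controls. The groups did not overlap, and the difference was 0.43 (limma adjusted p = 0.436). TK2 and DGUOK, the pair of mitochondrial salvage kinases, thus both had every MondoA shRNA clone above both controls, as had 4.85% of all genes.

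Among 16 measured enzymes that break deoxynucleotides down or clean the pool, 9 differences were above 0 and 6 below, with a median of 0.03. ADA, which deaminates adenosine and deoxyadenosine, had the largest, at -0.61 (7.54, 8.22 and 7.47 in MondoA shRNA clones, against 8.47 and 8.25 in controls, limma adjusted p = 0.833). All 3 MondoA shRNA clones stood below both controls, though clone 2 at 8.22 was close to control clone 2 at 8.25. The 7 measured folate cycle genes that feed TYMS differed by -0.01 to 0.09, against -0.46 for TYMS itself. The nucleoside transporter gene SLC29A1, through which cytarabine enters cells, differed by 0.23 (limma adjusted p = 0.833), and the mitochondrial pyrimidine nucleotide carrier gene SLC25A33 by 0.22 (limma adjusted p = 0.833). In both, 2 of 8 measured transport genes, every MondoA shRNA clone stood above both controls, as in 4.85% of all genes.

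In the synthesis of ribonucleotides upstream of the reductase, PRPS2 had by far the largest difference. The 17 other measured genes of that list differed by -0.13 to 0.26, against 2.24 for PRPS2 (limma adjusted p = 0.608), and the median of the list was 0.02. CDK2 and cyclin A2 phosphorylate SAMHD1 in S phase, and thioredoxin reduces ribonucleotide reductase. These genes, picked from the list for that role, differed by 0.00 (CDK2), 0.18 (CCNA2) and 0.08 (TXN), all with overlapping groups. In the list of regulators of SAMHD1 and the reductase (19 measured, median 0.00) the largest difference was that of CDKN1A, the cyclin-dependent kinase inhibitor p21, at -0.90. CDKN1A read 6.39, 6.74 and 6.36 in MondoA shRNA clones, against 7.42 and 7.37 in controls (limma adjusted p = 0.833), and the other 18 genes differed by -0.37 to 0.32.

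The genes of the replication fork had 17 of 23 differences above 0 and a median of 0.09. MCM6, a subunit of the replicative helicase, differed by 0.51, its partner MCM5 by 0.28 and the single-strand binding subunit gene RPA1 by 0.20, while POLD1, the catalytic subunit of DNA polymerase delta, differed by -0.40 (limma adjusted p = 0.833 for each). MCM6 read 9.55, 9.96 and 9.69 in MondoA shRNA clones, against 9.37 and 9.08 in controls, with the highest value in clone 2 as for most of the 9 enzymes.

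**Figure D5:**
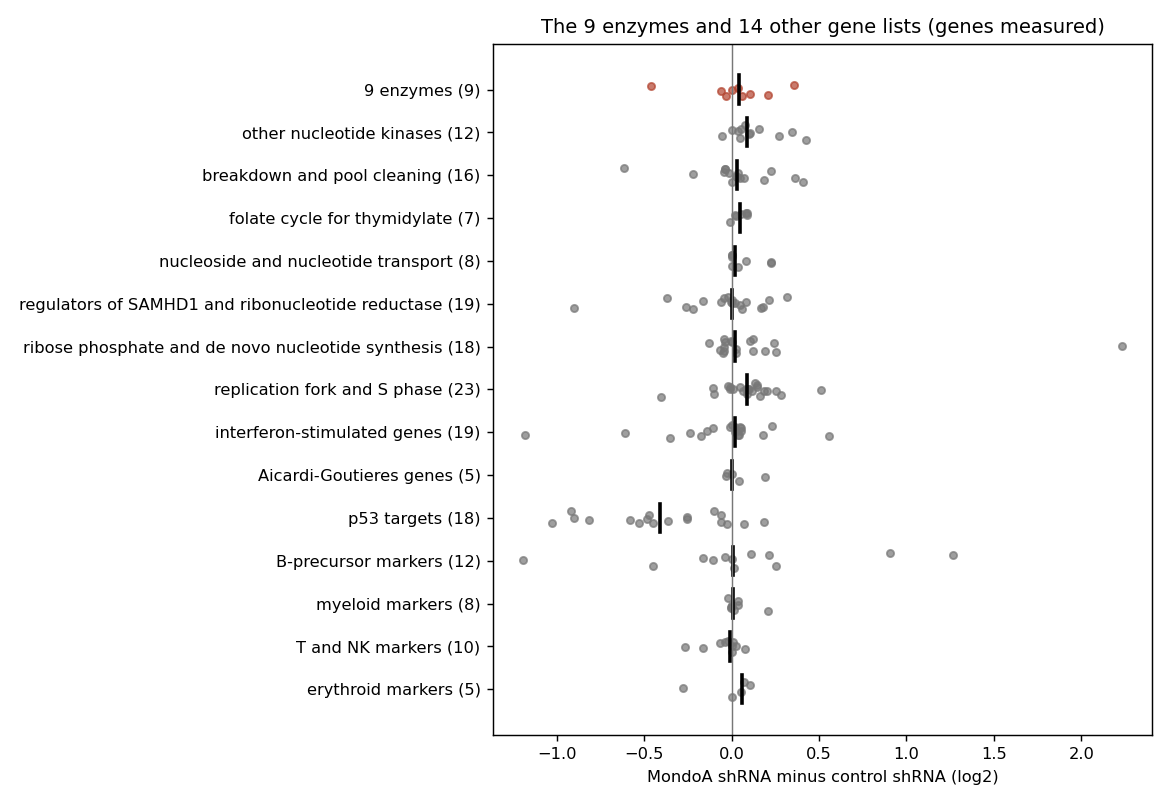
Difference (MondoA shRNA minus control shRNA, log2) of each measured gene in the 9 enzymes (red) and in 14 other lists, from nucleotide enzymes to cell type markers (grey), with the median of each list as a black tick and the number of measured genes in brackets; the vertical scatter is for legibility. The list medians lie between -0.01 and 0.09 except for the p53 targets at -0.41, and PRPS2 stands alone at 2.24.

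SAMHD1 is induced by interferon in many cells, and interferon-stimulated genes went both ways. Of 19 measured, 10 differences were above 0 and 8 below, with a median of 0.02. Only 10 of the 19 lay above the median gene level. MX2, which restricts retroviruses as SAMHD1 does, read 5.08, 5.22 and 5.17 in MondoA shRNA clones, against 4.76 and 4.44 in controls, a difference of 0.56 (limma adjusted p = 0.833). XAF1, which promotes apoptosis, went the other way, at 4.25, 4.37 and 4.20 in MondoA shRNA clones, against 5.45 and 5.46 in controls, a difference of -1.18 (limma adjusted p = 0.349). IFI44 (-0.61) and IFI44L (-0.35) lay below the median gene level. The part of interferon in the SAMHD1 difference was not tested. The other genes that, like SAMHD1, are mutated in Aicardi-Goutières syndrome (5 measured) differed by -0.03 to 0.19, with RNASEH2C, a subunit of ribonuclease H2, the highest.

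RRM2B is a target of p53, and most other p53 targets had negative differences, none of which passed the adjusted threshold in limma. Of 18 measured, 16 differences were below 0 and 2 above, with a median of -0.41, and in 10 of them every MondoA shRNA clone lay below both controls, where 5.18% of all genes did. At an unadjusted p under 0.05 stood 5 of the 18, all with negative differences, against 2.18% of all genes on that side. Above the median gene level lay 16 of the 18. Of the 9208 genes there, 770 had every MondoA shRNA clone below both controls, and 328 stood at an unadjusted limma p under 0.05 on the lower side. PMAIP1, which promotes apoptosis and lies on chromosome 18, differed by -1.03 (limma adjusted p = 0.589), CDKN1A by -0.90, the stress cytokine gene GDF15 by -0.82 (limma adjusted p = 0.435) and SESN2, a stress-induced sestrin, by -0.58 (limma adjusted p = 0.833). The RRM2B values were the same in all 5 clones.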

How the data were processed

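RNA from 5 Nalm6 clones (200 ng each) was amplified into biotin-labelled sense-strand target for Affymetrix whole-transcript arrays, 1 per clone. Per the submitters' processing notes the authors ran RMA with Affymetrix Expression Console 1.1. The deposited table gives 1 log2 value per probe set. The base is not stated and was taken as 2. Genome build, detection calls and array dates are not given in the sources used here. The number of arrays limits the precision, and p-values measure only the spread between these clones.

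Of 33297 probe sets, 19460 had 1 symbol in the platform annotation. Per gene the probe set with the highest mean was kept, which left 18417 genes, and 19429 of the 19460 probe sets matched a RefSeq gene (GRCh38.p14) by Entrez number. All genes were fitted with limma 3.58.1 in R 4.3.3 (linear model, empirical Bayes, two-sided, Benjamini-Hochberg over all genes, threshold 0.05). The limma step was tested on simulated normal values without ties. The deposited values hold many ties, so that test does not show how the fit behaves on them. Alternatives left out each array, used the replicate number as a block, normalised or centred again, averaged probe sets, kept brighter genes, changed the moderation or weighted the arrays. Leaving out genes with tied values was added after seeing the data. With it, the weight limma gave to the variance shared over genes (prior degrees of freedom) was 5.15, against 0.56 in the main fit. An adjusted p above the threshold in the main fit does not show an absence of differences.

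The members and the 14 lists (195 genes, 178 measured) were chosen with earlier results of these data known. Named genes are the members, in each list up to 4 with unadjusted p under 0.05 and groups that do not overlap and the one with the largest difference, the 5 genes nearest to SAMHD1 in profile and the 3 measured neighbours on each side of SAMHD1 and TYMS. CDK2, CCNA2 and TXN were added for their role, and the promoter motifs were chosen after the sequences were read.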

Additional observations from a re-analysis of the deposited data

How the results depend on the processing

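With 1 array left out, the SAMHD1 difference ran from 2.88 to 3.45 and the median difference of the 9 enzymes from 0.000 to 0.057. Since the SAMHD1 groups do not overlap, no array left out could turn its sign. The number of genes at an adjusted p under 0.05 in limma, 0 with all arrays (687 at an unadjusted p under 0.05), became 0 to 752 with 1 array left out (0 without each MondoA shRNA array, 752 without control 1 and 454 without control 2, where the lone control is assumed to vary like the MondoA shRNA arrays), 2 after a second quantile normalisation, 2 after centring each array, 3 with unmoderated variances and 60 of 4301 genes without tied values. The 687 became 586 to 1987 with 1 array left out, 1103 after a second quantile normalisation and 1263 with array weights. The cause was not tested. None of the 9 enzymes passed under any alternative run (lowest adjusted p 0.156, DUT without control 2, under the same assumption). Of 122 enzyme values, 4 changed sign: with 1 array left out RRM1 ran from -0.041 to 0.129, DCK from -0.137 to 0.057 and DUT from -0.005 to 0.077, and RRM1 was -0.035 with array weights. The clone numbers link nothing in the labels. With the number as a replicate block, SAMHD1 differed by 3.30 and 660 genes stood at an unadjusted p under 0.05, and that fit sets MondoA shRNA clone 3 aside. Signal over background was not assessed, which limits genes below the median level, SAMHD1 in the controls among them.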
